A study of Mus musculus with 3 samples.

Results

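Snhg6 and Snhg12 are noncoding genes that carry small nucleolar RNAs (snoRNAs) in their introns. They are the members of a list of 7 such host genes (Snhg1, Snhg3, Snhg5, Snhg6, Snhg8, Snhg12 and Gas5) that had a row among the 18029 genes of the count table, 2 of 7, and the other 5 were not analysed here. The list was selected on these data, by the counts of host genes summed per pool of mice, dose and cluster. The levels of Snhg6 and Snhg12 across doses and clusters are therefore given as a description, with standard errors and without a p-value.

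Host genes of this kind are transcribed, spliced and then largely discarded as spliced RNA, while the introns are trimmed into snoRNAs that guide chemical modification of ribosomal RNA. Many begin with a run of C and T at the first base, the 5′ terminal oligopyrimidine (TOP) motif that ribosomal protein mRNAs also carry and that ties their translation to the mTOR pathway. Because their short reading frames end early, the spliced RNAs are textbook substrates of nonsense-mediated decay, which acts during translation. Ribosome production is known to differ between resting and dividing T cells.

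The mice were B6D2F1 recipients given total body irradiation and then bone marrow with B6 T cells, an allogeneic transplant in which the donor T cells attack the host. All groups also received TEa T cells, which carry 1 transgenic T cell receptor against a host antigen. Recipients were injected every day from day 0 to day 6 with saline or with cyclosporine (CSA), the latter at 5 or 50 mg/kg, and CSA blocks calcineurin, the phosphatase that switches on NFAT downstream of the T cell receptor. Spleens were taken on day 7 from 6 mice a group, combined in 3 pools of 2 mice, marked with hashtag antibodies, sorted for CD4+ and CD8+ donor T cells and profiled by 10x 5′ single-cell RNA sequencing. Each group went through 1 capture, so capture and treatment cannot be told apart, and the 3 pools are the replicates. Ages and the sex of these mice were not given in the sources used here.

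Without the 280 TEa cells, the sums of UMIs (unique molecular identifiers, counted RNA molecules) held 692 to 1615 cells and 3994968 to 11454636 UMIs per pool and lineage. The median depth of a cell ran from 2966 to 8065 UMIs across pools and was higher at each CSA dose than with saline in both lineages. Among the 20986 distinct barcodes, 218 appeared in 2 or more captures. The 5 T cell markers summed to 2648 to 6069 per 1000000 UMIs (CPM), the 4 B cell markers to 2.37 to 30.5 CPM with Ms4a1 at most 0.455 CPM, and the 4 myeloid markers to 163 to 252 CPM, nearly all of it Cst3, with Lyz2 at most 5.96 CPM. The 4 erythroid markers summed to 3.21 to 17.2 CPM with saline or CSA 5 mg/kg and to 23.1 to 45.6 CPM in the 6 sums at 50 mg/kg, and the 5 heat shock genes to 113 to 204 CPM with Hspa1a at most 0.463 CPM. Some of these measures moved with treatment. The heat shock sum was higher in every saline pool than in every CSA pool, at 139 to 166 against 115 to 137 CPM in CD4+ and 164 to 204 against 113 to 146 CPM in CD8+ cells. In CD8+ cells the mitochondrial share of UMIs was 1.95% to 2.00% with saline and 1.59% to 1.75% with CSA, and the T cell markers summed to 3772 to 3859 CPM with saline, 4037 to 4174 CPM at 5 mg/kg and 5669 to 6069 CPM at 50 mg/kg. Their part in the results was not tested.

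Both genes are annotated as lincRNAs by GENCODE vM21 on GRCm38/mm10. Snhg6 lies at chr1:9941959-9944118 on the minus strand, and its transcript Snhg6-203 has 4 exons and a spliced length of 473 bases with Snord87 in intron 2. Snhg12 lies at chr4:132308623-132311024 on the plus strand, and its transcript Snhg12-206 has 5 exons and a spliced length of 606 bases with Snora16a, Snora44, Snora61 and Snord99 in introns 1, 2, 3 and 4. The beginnings of the transcripts are shown because they carry the feature that the hosts share with ribosomal protein mRNAs. They are the first 60 bases of Snhg6-203 (chr1:9944059-9944118, minus strand) and of Snhg12-204 (chr4:132308677-132308736, plus strand), with the first run of C and T in capitals. Snhg12-204 is 1 of 10 annotated Snhg12 transcripts and is shown for its start, whereas Snhg12-206 begins 1 base later, at 132308678, and so without the first C.

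Snhg6: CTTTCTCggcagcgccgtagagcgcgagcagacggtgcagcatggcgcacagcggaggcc
Snhg12: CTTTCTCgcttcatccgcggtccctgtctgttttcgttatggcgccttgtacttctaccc

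The first 8 bases were identical in these 2 transcripts. CTTTC at base 1 of at least 1 annotated transcript, read on the transcript strand only, was found in 144 of the 17805 genes of the table with a transcript sequence (0.809%) and in 7 of 78 cytosolic ribosomal protein genes (8.97%). A C followed by at least 4 more C or T at base 1 was found in 1638 genes (9.20%) and in 34 ribosomal protein genes (43.6%). The other noncoding hosts with an edgeR test, Snhg20, Epb41l4aos and Snhg10, had neither form. A match describes letters and is no measured start site.

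The intronic products themselves are not polyadenylated and were not analysed here, so the measurements concern the host genes. Whether intron reads of the hosts were counted was not given in the sources used here. Of the 5 snoRNAs that lie in the introns of both hosts, 4 are shown because they are the products that give host genes their name. Snord87 and Snord99 belong to the C/D class, which guides 2'-O-methylation (box C TGATGA and box D CTGA in capitals), and Snora16a and Snora61 are 2 of the 3 of the H/ACA class, which guides pseudouridylation (ACA box in capitals), Snora44 not being printed. Snord87 is at chr1:9942463-9942549, minus strand, and the others are on chr4, plus strand: Snord99 at chr4:132310691-132310764, Snora16a at chr4:132309465-132309600 and Snora61 at chr4:132310240-132310369.

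Snord87: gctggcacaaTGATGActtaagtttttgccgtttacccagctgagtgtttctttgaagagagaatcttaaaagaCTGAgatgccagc
Snord99: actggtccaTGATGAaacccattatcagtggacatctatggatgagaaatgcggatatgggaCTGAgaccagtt
Snora16a: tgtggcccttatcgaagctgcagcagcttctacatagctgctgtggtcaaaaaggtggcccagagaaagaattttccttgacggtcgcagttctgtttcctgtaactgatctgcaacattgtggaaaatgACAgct
Snora61: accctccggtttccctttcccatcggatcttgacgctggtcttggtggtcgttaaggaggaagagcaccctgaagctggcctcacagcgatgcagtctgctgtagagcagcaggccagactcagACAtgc

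TGATGA occurred in 74 of 98 annotated Snord genes (75.5%), CTGA in 98 of 98, and ACA at 3 bases before the end in 34 of 40 Snora genes (85.0%), all read on the transcript strand only.

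Across doses, Snhg6 was higher in every CSA pool than in every saline pool, in CD4+ and in CD8+ cells, and was highest at 5 mg/kg. Snhg12 took another course. Its share of all UMIs was about level at 5 mg/kg and lowest at 50 mg/kg in both lineages. The counts behind these levels were 90 to 346 UMIs of Snhg6 and 89 to 172 UMIs of Snhg12 per pool and lineage. The share of all genes whose pools separate likewise was not computed, so separation of groups is not read as particular to the hosts. In edgeR, 51.7% to 74.0% of all genes tested differed from saline at an adjusted p under 0.05, by lineage and dose.

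In CD4+ cells, Snhg6 stood at 22.5, 20.3 and 25.9 CPM in saline pools 1, 2 and 3, at 35.9, 35.2 and 43.1 CPM with CSA 5 mg/kg, and at 31.9, 34.4 and 32.5 CPM with CSA 50 mg/kg. The saline pools were the 3 lowest, and the pools of the 2 doses did not overlap, with 50 mg/kg below 5 mg/kg. The means were 22.9 ± 2.81, 38.0 ± 4.38 and 32.9 ± 1.26 CPM (SD, n = 3).

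In CD8+ cells, Snhg6 stood at 24.4, 22.7 and 23.2 CPM with saline, at 40.8, 36.7 and 40.2 CPM with 5 mg/kg, and at 32.4, 32.1 and 30.2 CPM with 50 mg/kg. The order of the groups was as in CD4+ cells, with no overlap between any 2 of them. The means were 23.4 ± 0.903, 39.2 ± 2.17 and 31.6 ± 1.20 CPM (SD, n = 3).

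Snhg12 in CD4+ cells stood at 24.3, 26.7 and 25.5 CPM with saline, at 24.6, 26.5 and 24.6 CPM with 5 mg/kg, and at 17.1, 15.4 and 20.8 CPM with 50 mg/kg. The first 2 groups overlapped, and all 3 pools at 50 mg/kg lay below both. The means were 25.5 ± 1.22, 25.2 ± 1.11 and 17.8 ± 2.76 CPM (SD, n = 3).

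Snhg12 in CD8+ cells stood at 20.3, 21.6 and 20.7 CPM with saline, at 20.3, 18.8 and 20.3 CPM with 5 mg/kg, and at 16, 16.2 and 15.0 CPM with 50 mg/kg. Every 5 mg/kg pool lay below every saline pool, but by a gap smaller than the rounding (20.3 CPM on both sides), and the 50 mg/kg pools were again the 3 lowest. The means were 20.9 ± 0.619, 19.8 ± 0.870 and 15.7 ± 0.628 CPM (SD, n = 3).

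**Figure D1:**
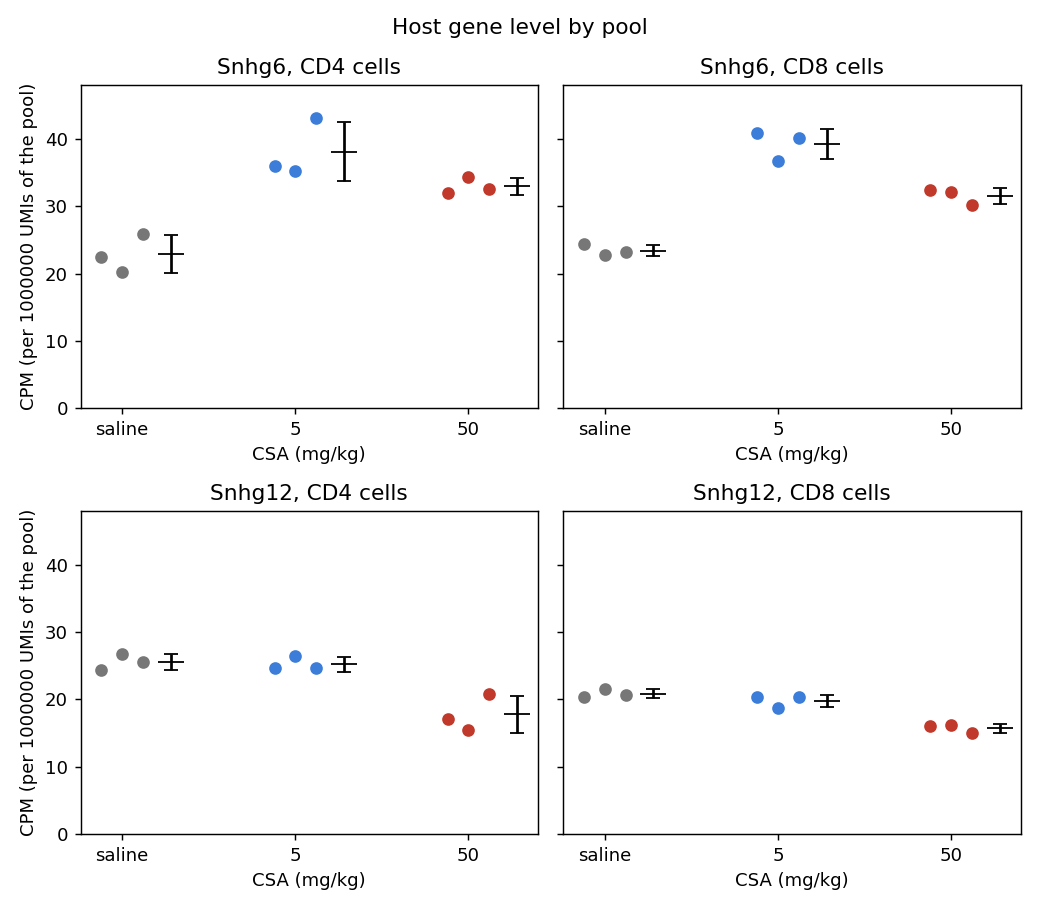
Snhg6 (top) and Snhg12 (bottom) in CD4+ and CD8+ cells, in CPM of the pool (vertical axis, from 0) against the CSA dose in mg/kg. Each dot is 1 pool of 2 mice, and bars give the mean and SD of 3 pools. Snhg6 is lowest in the saline pools and highest at 5 mg/kg, and Snhg12 is lowest at 50 mg/kg.

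A share of all UMIs depends on what else the cells express, so the change was also computed with TMM scaling, which sets the bulk of genes to no change, in edgeR's quasi-likelihood fit. Library size scaling moved the median of all genes by -0.360 and -0.440 on the log2 scale in CD4+ cells (5 and 50 mg/kg against saline) and by -0.420 and -0.530 in CD8+ cells, relative to TMM. Comparisons of both doses with saline share the saline pools.

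Snhg6 was higher with CSA under both scalings. In CD4+ cells its log2 change against saline was 1.10 ± 0.11 (SE) at 5 mg/kg and 0.96 ± 0.11 at 50 mg/kg with TMM, and 0.74 ± 0.11 and 0.52 ± 0.11 with library size. In CD8+ cells it was 1.17 ± 0.08 and 0.96 ± 0.08 with TMM, and 0.74 ± 0.08 and 0.43 ± 0.08 with library size. The difference of 50 from 5 mg/kg was small in each lineage, -0.14 ± 0.10 in CD4+ and -0.21 ± 0.08 in CD8+ cells with TMM.

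For Snhg12, the direction against saline depended on the scaling, except in CD4+ cells at 50 mg/kg, where both changes were negative. With TMM the log2 change at 5 mg/kg was 0.34 ± 0.11 in CD4+ and 0.35 ± 0.09 in CD8+ cells, and with library size it was -0.02 ± 0.11 and -0.08 ± 0.09. At 50 mg/kg it was -0.08 ± 0.11 and 0.12 ± 0.09 with TMM, against -0.52 ± 0.11 and -0.41 ± 0.09 with library size. The step from 5 to 50 mg/kg kept its sign under both scalings in each lineage. It was -0.42 ± 0.11 in CD4+ and -0.23 ± 0.09 in CD8+ cells with TMM and -0.50 ± 0.11 and -0.34 ± 0.09 with library size.

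At an adjusted p under 0.05 over all genes with TMM, both genes passed at 5 mg/kg against saline in CD4+ cells, where 51.7% of all genes tested did, and in CD8+ cells, where 60.2% did. Snhg6 alone passed at 50 mg/kg against saline, where 70.5% of genes did in CD4+ and 74.0% in CD8+ cells. For 50 against 5 mg/kg, Snhg12 passed in CD4+ cells (41.2% of genes) and Snhg6 in CD8+ cells (41.0% of genes). The list was chosen on these contrasts, and nothing is read from these counts.

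**Figure D2:**
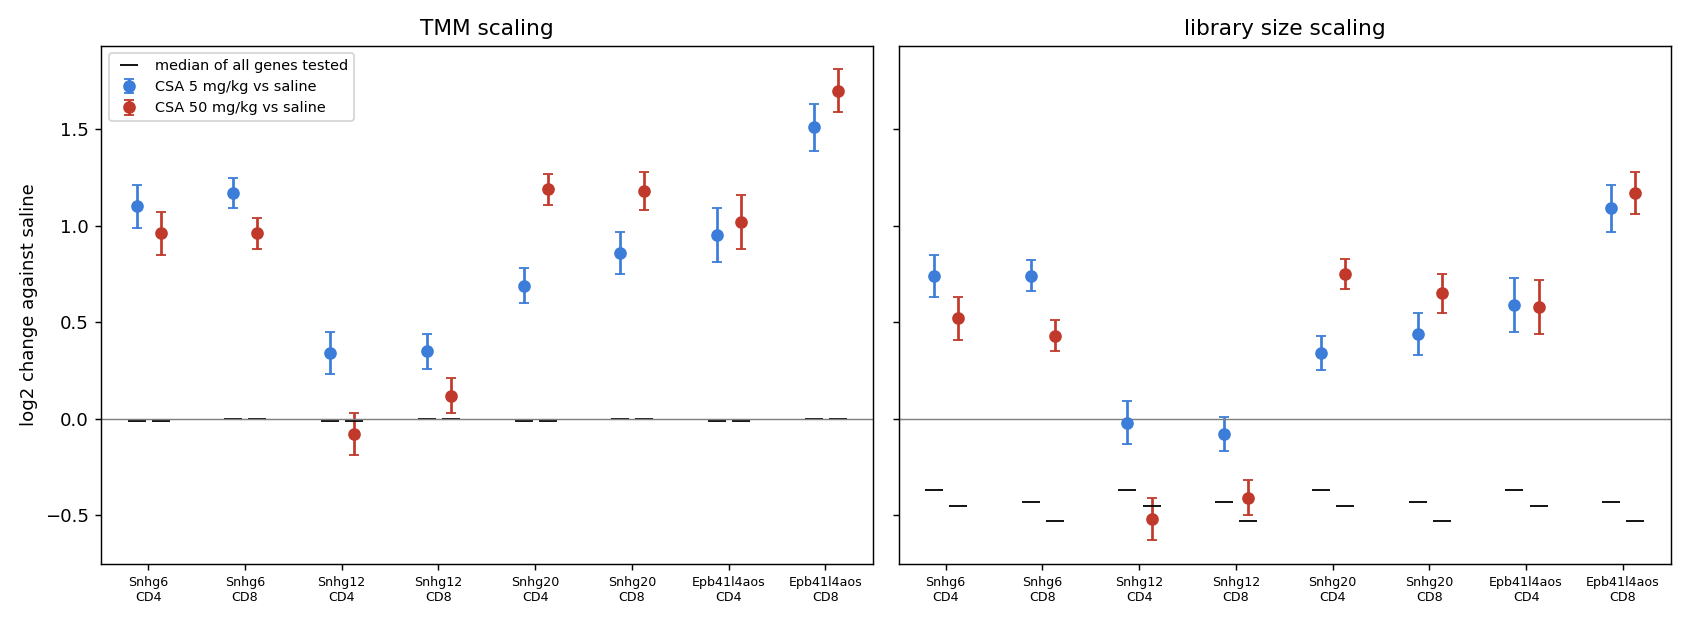
Log2 change against saline (vertical axis) of Snhg6, Snhg12, Snhg20 and Epb41l4aos in CD4+ and CD8+ cells, with TMM scaling (left) and library size scaling (right). Dots are the fitted change at 5 mg/kg (blue) and 50 mg/kg (red), bars are ± 1 SE and black dashes the median of all genes tested. Snhg6 lies above 0 in both panels, and Snhg12 at 5 mg/kg moves from 0.34 and 0.35 to -0.02 and -0.08.

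The ratio of the hosts to each other needs no scaling. In CD4+ cells there were 0.928, 0.760 and 1.01 Snhg6 UMIs per Snhg12 UMI in saline pools 1, 2 and 3, 1.46, 1.33 and 1.75 at 5 mg/kg, and 1.87, 2.23 and 1.56 at 50 mg/kg. The saline pools were the 3 lowest, and the doses overlapped. In CD8+ cells the ratio was 1.20, 1.05 and 1.12 with saline, 2.01, 1.96 and 1.98 at 5 mg/kg, and 2.02, 1.99 and 2.01 at 50 mg/kg. The saline pools were again the lowest and the doses overlapped, so that the shift of Snhg6 against Snhg12 was present at the lower dose.

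The second scale-free measure set each host against the 78 cytosolic ribosomal protein genes, whose summed share of UMIs also rose from saline to CSA. That share was 15.2 ± 0.110%, 23.1 ± 0.208% and 20.9 ± 0.595% in CD4+ cells and 13.5 ± 0.325%, 22.7 ± 0.531% and 21.8 ± 0.493% in CD8+ cells (SD, n = 3; saline, 5 and 50 mg/kg). Every CSA pool lay above every saline pool, and 5 mg/kg had the highest mean. An exact two-sided permutation test of an ordered trend over the 3 doses, which this course does not follow, gave p = 0.388 in CD4+ and p = 0.277 in CD8+ cells, with an adjusted p of 0.388 in each.

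Against ribosomal protein UMIs, Snhg6 was nearly level in CD4+ cells, at 0.148, 0.133 and 0.172 per 1000 with saline, 0.157, 0.153 and 0.185 with 5 mg/kg, and 0.157, 0.165 and 0.151 with 50 mg/kg. All 3 groups overlapped. In CD8+ cells it was 0.185, 0.171 and 0.168 with saline, 0.175, 0.163 and 0.180 with 5 mg/kg, and 0.151, 0.149 and 0.135 with 50 mg/kg, the last below the other groups without overlap.

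Snhg12 was lower against ribosomal protein UMIs at both doses. In CD4+ cells it was 0.160, 0.175 and 0.169 per 1000 with saline, 0.108, 0.115 and 0.105 with 5 mg/kg, and 0.0840, 0.0739 and 0.0966 with 50 mg/kg. In CD8+ cells it was 0.154, 0.162 and 0.150, then 0.0869, 0.0833 and 0.0911, then 0.0748, 0.0749 and 0.0672. The groups fell in the order of dose in each lineage, with no overlap between any 2. The mean at 50 mg/kg was 0.505 times that of saline in CD4+ and 0.466 times in CD8+ cells.

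**Figure D3:**
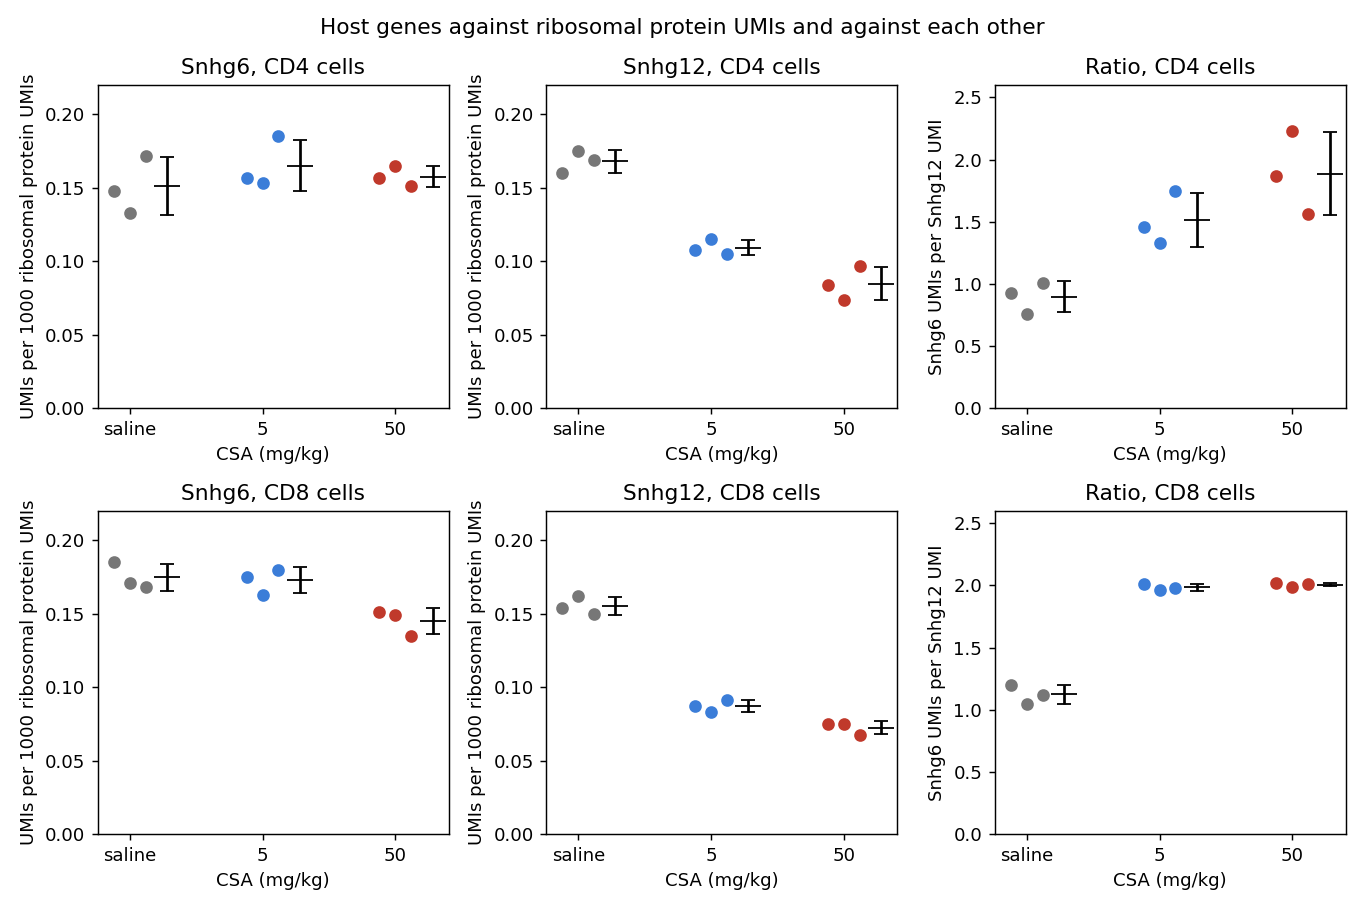
UMIs of Snhg6 (left) and Snhg12 (middle) per 1000 UMIs of cytosolic ribosomal protein genes and Snhg6 UMIs per Snhg12 UMI (right) in CD4+ (top) and CD8+ (bottom) cells, against the CSA dose in mg/kg. Dots are pools, and bars the mean and SD of 3 pools. Snhg6 overlaps between all groups in CD4+ cells, Snhg12 separates all 3 groups, and the ratio separates saline from both doses.

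Per cell, both hosts were at higher counts with CSA, alongside the deeper libraries. Snhg6 gave 84.7 ± 11.3, 191 ± 32.3 and 224 ± 11.1 UMIs per 1000 CD4+ cells (saline, 5 and 50 mg/kg) and 112 ± 0.778, 273 ± 26.7 and 253 ± 13.5 per 1000 CD8+ cells. Snhg12 gave 94.4 ± 8.14, 126 ± 9.78 and 122 ± 23.7 per 1000 CD4+ cells and 100.2 ± 6.14, 138 ± 13.8 and 126 ± 6.74 per 1000 CD8+ cells. Saline pools did not overlap with CSA pools in any of these.

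The share of cells with at least 1 UMI was compared after thinning each cell to 2000 UMIs, which left 83.2% to 99.8% of the cells of a pool. For Snhg6 the thinned share was 4.52 ± 0.752%, 7.07 ± 0.352% and 6.26 ± 0.446% of CD4+ cells and 4.29 ± 0.356%, 8.25 ± 0.513% and 6.28 ± 0.338% of CD8+ cells, with no overlap between groups. In CD4+ cells the doses were barely apart, at 6.73% (lowest 5 mg/kg pool) against 6.70% (highest 50 mg/kg pool). Thinning was random and run 1 time, so the separation of these doses is not read. Unthinned it was 7.78%, 16% and 19.0% of CD4+ and 9.87%, 23.1% and 21.7% of CD8+ cells. For Snhg12 the thinned share was 5.16 ± 0.874%, 5.09 ± 0.777% and 3.48 ± 0.460% of CD4+ cells, 50 mg/kg lying below the others, and 4.08 ± 0.422%, 4.23 ± 0.567% and 3.48 ± 0.629% of CD8+ cells, where all groups overlapped. Unthinned it was 8.68%, 11.2% and 10.7% of CD4+ and 9.09%, 12.3% and 11.3% of CD8+ cells. Free RNA in the droplets was not measured, since no cell type here should lack these genes.

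The dose change of the hosts was also compared between lineages. At 50 mg/kg against saline the CD8+ change minus the CD4+ change was -0.03 ± 0.13 for Snhg6 and 0.17 ± 0.14 for Snhg12 (log2, SE). At 5 mg/kg it was 0.03 ± 0.13 and -0.02 ± 0.15, and for 50 against 5 mg/kg -0.05 ± 0.11 and 0.19 ± 0.15, none of them far from its standard error.

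The authors' clusters, 13 of CD4+ and 9 of CD8+ cells, differed in both hosts. Snhg12 was highest in the cluster with the highest Ccr7, a receptor of lymph node homing that marks naive and central memory T cells, in each lineage. It stood at 70.4 ± 26.5 CPM in CD4 cluster C9 and at 62.8 ± 16.6 CPM in CD8 cluster C7 (SD over 9 pools each). The next clusters were CD4 C7, rich in the chemokine RNAs Ccl3 and Ccl4, at 37.0 ± 6.74 CPM, and CD8 C5, rich in Tcf7, a factor of self-renewing T cells, at 32.4 ± 8.72 CPM. These were the only neighbours in the order of Snhg12 levels that differed by more than the spread over pools, and all lower neighbours did not. The lowest means were 13.7 ± 13.4 CPM in CD4 C10, the cluster rich in the interferon-induced Isg15, and 12.5 ± 5.05 CPM in CD8 C3, a cycling cluster.

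Snhg6 did not peak in the Ccr7-rich clusters. Its highest means were 46.2 ± 16.4 CPM in CD4 C7 and 41.5 ± 9.17 CPM in CD8 C1, with 30.6 ± 15.2 CPM in CD4 C9 and 40.9 ± 13.7 CPM in CD8 C7. Its lowest were in the clusters with the most Mki67, a marker of dividing cells, at 13.6 ± 10.7 CPM in CD4 C6 (8 pools) and 17.4 ± 11.8 CPM in CD8 C4 (6 pools). These means are over pools of all doses, and the one of CD8 C4 holds no pool at 50 mg/kg. At that dose alone CD4 C6 stood at 29.0 ± 11.2 CPM (2 pools), above CD4 C10 (20.4 CPM), C0 (24.5 CPM) and C5 (24.8 CPM). No neighbours in the order of Snhg6 levels differed beyond their spread. Few UMIs lay behind the small clusters, 28 of Snhg6 and 66 of Snhg12 in all pools of CD4 C9, and 33 of Snhg6 in CD4 C6.

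Over pools of all doses, the mean ribosomal protein share of UMIs was highest in the same Ccr7-rich clusters, 30.7 ± 6.19% in CD4 C9 and 35.6 ± 1.39% in CD8 C7, and lowest in CD4 C6 (9.18 ± 0.765%) and CD8 C4 (9.24 ± 0.975%). CD4 C9 did not differ beyond its spread from CD4 C2 (27.2 ± 1.75%), and with saline alone C2 was the higher, at 250834 ± 4867 against 227741 ± 10779 ribosomal protein UMIs per 1000000. Across the 9 CD8 clusters, mean Snhg6 and ribosomal protein share gave Pearson's r = 0.82 and Spearman's rho = 0.95, and Snhg12 gave 0.73 and 0.45. Across the 13 CD4 clusters the values were 0.52 and 0.40 for Snhg6 and 0.48 and 0.14 for Snhg12. These are descriptions of clusters that share pools, captures and total UMIs.

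**Figure D4:**
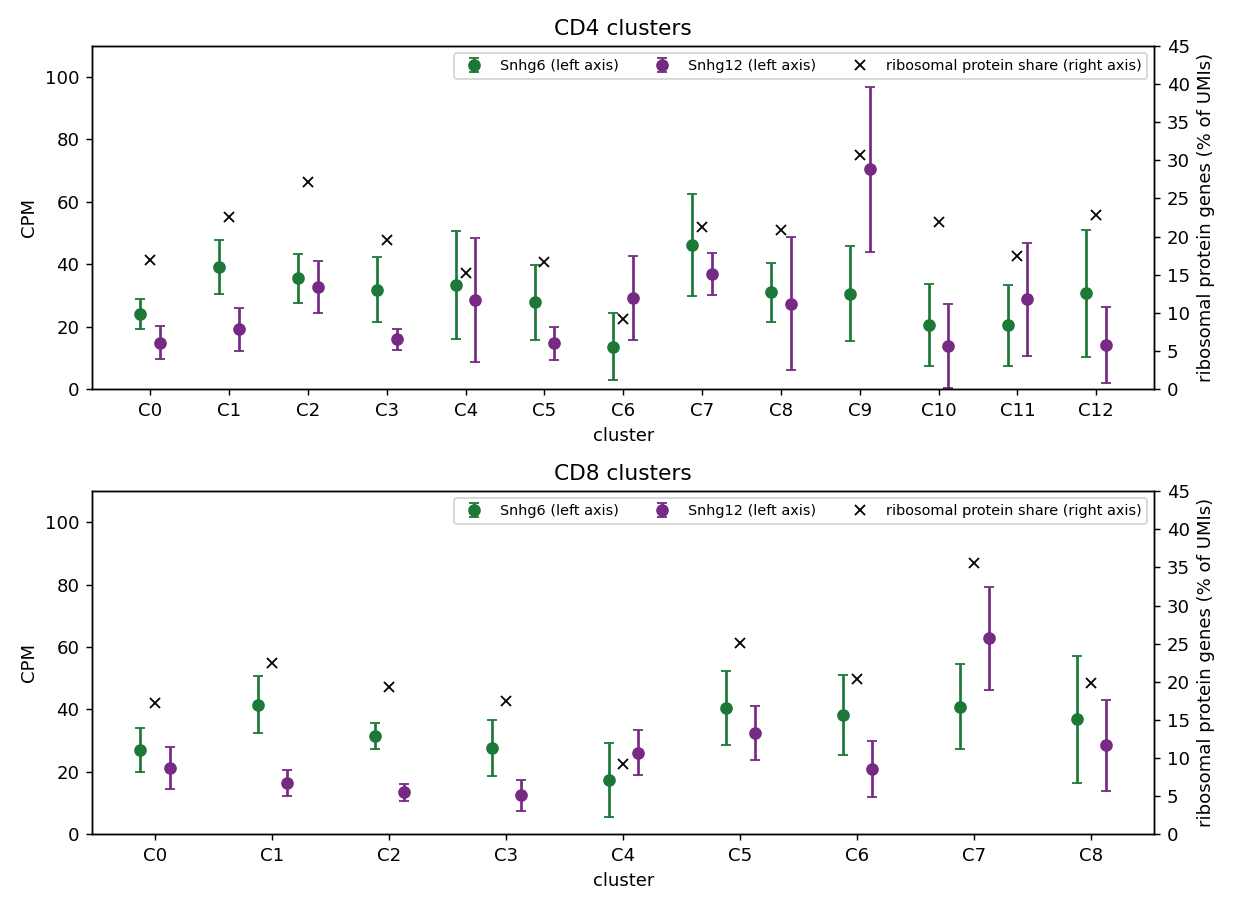
Level of Snhg6 (green) and Snhg12 (purple) by cluster in CPM (left axis, mean and SD over pools with at least 10 cells) and the mean ribosomal protein share in percent of UMIs (crosses, right axis), CD4 clusters above and CD8 clusters below. Over pools of all doses, mean Snhg12 is highest in CD4 C9 and CD8 C7, and mean Snhg6 is lowest in CD4 C6 and CD8 C4.

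Within most clusters Snhg6 was again higher with CSA than with saline. With TMM scaling, mean log2(CPM + 1) at 50 mg/kg exceeded saline in 11 of 11 CD4 clusters with a median of 0.71 and in 8 of 8 CD8 clusters with a median of 0.59, and with library size scaling in 10 and 5 of them. The TMM rise was smaller than its SE in CD4 C2 (0.07 ± 0.28), C9 and C10 and in CD8 C1, C5 and C7 (0.06 ± 0.44). The summed ribosomal protein genes rose likewise, in 10 of 11 CD4 clusters (median 0.69) and 8 of 8 CD8 clusters (median 0.97). At 5 mg/kg Snhg6 exceeded saline in 9 of 11 CD4 clusters and 8 of 9 CD8 clusters under either scaling. The exceptions at 5 mg/kg were the Cxcr5-rich CD4 C4 (-0.23 ± 0.56, SE), the cycling CD4 C6 (-0.51 ± 0.34) and the cycling CD8 C4 (-0.73 ± 1.66), all with TMM. In CD8 C4 the lowest pool stood at 0 CPM, and mean CPM was higher at 5 mg/kg (19.7 ± 17.9, SD) than with saline (15.1 ± 2.98). Between doses the clusters did not share 1 direction, and 50 mg/kg exceeded 5 mg/kg in 5 of 11 CD4 clusters (median -0.03) and 1 of 8 CD8 clusters (median -0.36) with TMM. The largest change from saline among clusters was in CD8 C8, rich in Ccl3 and Ccl4, where Snhg6 went from 17.5 ± 4.41 CPM with saline to 61.8 ± 14.9 CPM at 5 mg/kg (2 pools) and 39.5 ± 11.2 CPM at 50 mg/kg.

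Snhg12 went up in some clusters and down in others. At 50 mg/kg against saline it was higher in 2 of 11 CD4 clusters with a median of -0.23 and in 8 of 8 CD8 clusters with a median of 0.27 with TMM, and in 1 and 3 of them with library size scaling. The largest falls, in CD4 C4 (-2.97 ± 1.95, SE) and C6 (-2.26 ± 2.59, 2 pools), were in clusters whose lowest pool stood at 0 CPM. With at least 20 cells a pool, Snhg12 was higher in 3 of 9 CD4 clusters (median -0.11) and 8 of 8 CD8 clusters (median 0.17) with TMM. These counts are not read as a difference between lineages. At 5 mg/kg it was higher in 9 of 11 CD4 clusters and 8 of 9 CD8 clusters with TMM, and in 4 and 6 with library size scaling. In the Ccr7-rich clusters Snhg12 was 58.5 ± 6.35, 76.7 ± 11.8 and 76.1 ± 48.2 CPM in CD4 C9 and 58.3 ± 26.5, 69.4 ± 12.2 and 60.8 ± 12.2 CPM in CD8 C7 (saline, 5 and 50 mg/kg), where 1 SD at 50 mg/kg spanned the saline mean. CD8 C7 held 2.49 ± 0.282%, 6.11 ± 2.09% and 4.57 ± 0.600% of CD8+ cells, and CD4 C9 held 2.73 ± 0.879%, 3.55 ± 0.834% and 3.07 ± 1.32% of CD4+ cells. Without CD8 C7, an alternative chosen after seeing the data, the TMM change of Snhg12 in CD8+ cells was 0.23 at 5 mg/kg and 0.04 at 50 mg/kg.

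**Figure D5:**
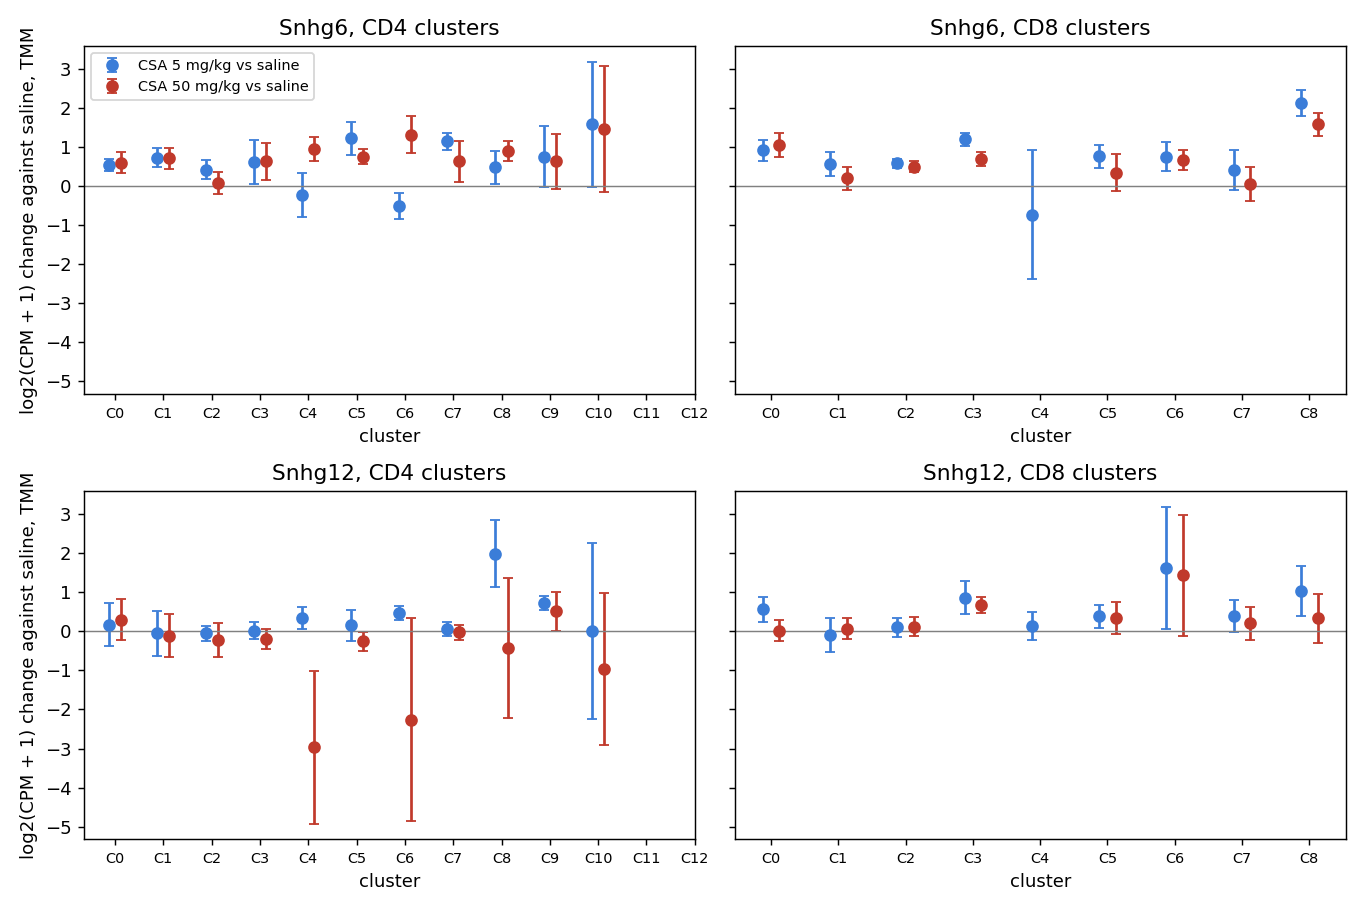
Change of mean log2(CPM + 1) against saline with TMM scaling (vertical axis) in each cluster, for Snhg6 (top) and Snhg12 (bottom), CD4 clusters left and CD8 clusters right, at 5 mg/kg (blue) and 50 mg/kg (red). Bars are ± 1 SE over pools, and clusters or doses with fewer than 2 pools of at least 10 cells are left out. Snhg6 lies above 0 in 11 of 11 CD4 and 8 of 8 CD8 clusters at 50 mg/kg, in some of them by less than 1 SE.

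In the TEa cells, which saw 1 known antigen and were left out of the sums above, the counts were small. Snhg6 gave 10, 32 and 12 UMIs in 123, 130 and 27 cells (saline, 5 and 50 mg/kg), or 18.9, 41.8 and 52.2 CPM. The pools ran from 18.1 to 21.9 CPM with saline, from 30.1 to 50.7 CPM at 5 mg/kg and from 45.2 to 62.1 CPM at 50 mg/kg, with saline below both doses and the doses overlapping. A pool held only 2 to 4 Snhg6 UMIs with saline, 6 to 17 at 5 mg/kg and 3 to 5 at 50 mg/kg, the last in 7 to 11 cells. The order of the groups is therefore not read as firm. Snhg12 gave 9, 17 and 6 UMIs, or 17.0, 22.2 and 26.1 CPM, and its pools overlapped between all groups.

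Among 5967 genes of at least 20 CPM, the genes with the profile most like Snhg6 over the 18 sums (9 pools in 2 lineages, TMM-scaled log2 CPM) were Dpm3 and Ndufa5, each with r = 0.98. The median r was 0.95 for the ribosomal protein genes and 0.17 for all genes. For Snhg12 they were Cd69, an early activation antigen, with r = 0.89 and Sh2d1a, the T cell signalling adaptor SAP, with r = 0.88, and the medians were 0.37 for ribosomal protein genes and -0.01 for all genes. Snhg6 and Snhg12 gave r = 0.39 with each other. The sums share pools, captures and the 3 dose groups.

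Of 15 other noncoding snoRNA hosts listed for comparison, 5 had a row and 3 had enough counts for the test, and Snhg9 and Snhg18 were at 0 to 5 UMIs per pool. Snhg20 rose in CD4+ cells from 22.7 ± 0.861 CPM with saline to 38.4 ± 1.25 CPM at 50 mg/kg (SD, n = 3), with a TMM log2 change of 1.19 ± 0.08 (SE; edgeR adjusted p = 4.47e-11). In CD8+ cells it rose from 22.7 ± 0.825 to 35.3 ± 4.53 CPM, a log2 change of 1.18 ± 0.10 (edgeR adjusted p = 6.34e-09). It stepped up further from 5 to 50 mg/kg in CD4+ cells (0.50 ± 0.08, edgeR adjusted p = 3.71e-05), where the same step was -0.14 ± 0.10 for Snhg6 and -0.42 ± 0.11 for Snhg12.

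Epb41l4aos, the host antisense to Epb41l4a, rose at both doses. At 5 mg/kg its log2 change was 0.95 ± 0.14 in CD4+ (edgeR adjusted p = 1.12e-05) and 1.51 ± 0.12 in CD8+ cells (edgeR adjusted p = 3.36e-09). At 50 mg/kg it was 1.02 ± 0.14 in CD4+ (edgeR adjusted p = 9.91e-07) and 1.70 ± 0.11 in CD8+ cells (edgeR adjusted p = 1.23e-10). The step between the doses was 0.07 ± 0.13 (edgeR adjusted p = 0.697) and 0.19 ± 0.10 (edgeR adjusted p = 0.151). Snhg10, at group means of 1.46 to 2.34 CPM, changed at 50 mg/kg against saline by 0.60 ± 0.35 in CD4+ (edgeR adjusted p = 0.127) and 1.17 ± 0.32 in CD8+ cells (edgeR adjusted p = 0.00289), the latter at 0.0731 with library size scaling. In this group 2 of 3 tested hosts rose in CD4+ and 3 of 3 in CD8+ cells at 50 mg/kg and none fell, with medians of 1.02 and 1.18 against -0.01 and 0.00 over all genes. Of all genes tested, 70.5% and 74.0% were called in either direction, so the counts of calls are not read as particular to these hosts. With library size scaling 2 of 3 rose in each lineage.

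The counts of the other gene lists at 50 mg/kg stand against 70.5% of all genes tested called in either direction in CD4+ and 74.0% in CD8+ cells with TMM, with all-gene medians of -0.01 and 0.00 on the log2 scale. With library size scaling the all-gene medians were -0.45 and -0.53, and the share of all genes called is not given here. The falls under that scaling are therefore not read as a trait of a list. Genes named from these lists were picked for a large change past the threshold in this same contrast, so their p-values are a description. Protein-coding hosts carry snoRNAs in the introns of translated genes. At 50 mg/kg against saline 7 of 19 tested rose and 6 fell in CD4+ cells and 7 rose and 9 fell in CD8+ cells, against 3 and 13, and 3 and 14, with library size scaling. Their medians were -0.08 and -0.12. Those that rose most were Tpt1, Eef1b2 and Rack1, genes of the TOP class. Tpt1 changed by 0.88 ± 0.03 in CD4+ (edgeR adjusted p = 3.99e-16) and 1.19 ± 0.03 in CD8+ cells (edgeR adjusted p = 1.76e-15). Among those that fell were Ncl, the nucleolar protein nucleolin, by 0.47 and 0.51 on the log2 scale (edgeR adjusted p = 2.55e-09 and 6.88e-10), and Cnot1, the scaffold of the deadenylase complex.

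All 78 ribosomal protein genes rose at 50 mg/kg in each lineage, with medians of 0.93 in CD4+ and 1.26 in CD8+ cells, and 75 and 77 of them did with library size scaling, with medians of 0.49 and 0.73. The Snhg6 change of 0.96 in both lineages lay near the first median and below the second. Of 15 TOP translation factors, 11 rose and 2 fell in CD4+ and 13 rose and 1 fell in CD8+ cells (9 and 4, and 10 and 4, with library size scaling), with medians of 0.66 and 0.87. Naca rose most (1.02 and 1.24, edgeR adjusted p = 1.40e-16 and 1.35e-15), and Eif4b fell in both lineages.

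Of 15 genes of nonsense-mediated decay and the exon junction, 7 rose and 8 fell in each lineage at 50 mg/kg (3 and 9, and 4 and 10, with library size scaling). That is every gene of the list, where 70.5% and 74.0% of all genes were called, and the medians were -0.22 and -0.32 against -0.01 and 0.00. Smg1, the kinase that phosphorylates UPF1, fell by 1.13 on the log2 scale in each lineage (edgeR adjusted p = 1.41e-13 and 3.05e-10), and Smg6, which acts after it, also fell. Magoh and Magohb, near-identical core proteins of the exon junction whose reads may be split between the copies, rose.

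Among 17 snoRNP proteins and assembly factors, which package the snoRNAs, 7 rose and 2 fell in CD4+ and 8 rose and 3 fell in CD8+ cells at 50 mg/kg, and 3 rose and 11 fell, and 4 rose and 12 fell, with library size scaling. Those called with TMM, 9 and 11 of 17, were a smaller share than the 70.5% and 74.0% of all genes, and the medians were 0.13 and 0.14 against -0.01 and 0.00. Nop10 rose in both lineages under both scalings (0.81 and 1.18 with TMM, edgeR adjusted p = 4.01e-12 and 5.37e-13), and Nolc1, a nucleolar chaperone of snoRNPs, fell. Of 18 genes of RNA polymerase I and ribosome assembly, 4 rose and 6 fell in CD4+ and 9 rose and 6 fell in CD8+ cells, against 1 and 13 in each lineage with library size scaling. The medians with TMM were -0.09 and 0.16. Polr1d, a subunit of polymerases I and III, rose under both scalings.

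The neighbours of the hosts bear on how reads are assigned. Snhg6 overlaps Mcmdc2-204 on the opposite strand at chr1:9941959-9942085, 127 bases, and whether counting used strand was not given in the sources used here, so that reads there cannot be told apart. Mcmdc2 was too low for the test. Trnau1ap, the nearest listed gene to Snhg12 and on the opposite strand, changed with TMM by 0.27 ± 0.09 in CD4+ (edgeR adjusted p = 0.0148) and 0.45 ± 0.08 in CD8+ cells (edgeR adjusted p = 9.36e-05) at 50 mg/kg, and with library size scaling by -0.17 and -0.08, neither past the threshold.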

How the data were processed

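Single-cell RNA of sorted donor CD4+ and CD8+ spleen T cells was measured in 3 captures. Per the submitters' processing notes, the authors used Cell Ranger (version not given in the sources used here) and Seurat 3.0.0 on mm10, and deposited UMI counts per gene and cell after filtering cells and genes. They also deposited per cell the hashtag pool, cluster, TEa mark, doublet mark (none marked) and mitochondrial fraction. The deposited genes held 79.7% to 91.7% of a pool's UMIs. Strand and intron settings were not given in the sources used here.

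Counts of 21204 cells (10371 CD4+, 10833 CD8+) were summed per pool and lineage, without 280 TEa cells. The genes and lists were chosen with earlier results of these data known. Pools were compared with edgeR 4.0.16 in R 4.3.3 (filterByExpr, TMM, glmQLFit and glmQLFTest, Benjamini-Hochberg over all genes tested, threshold 0.05), all 9 pools in 1 fit. The lineage difference was an interaction term over 18 sums with the pool as a block. The fit was tested on simulated data with 200 changed genes, raised and lowered in equal number. In the real data most genes were called against saline, so the simulation does not test the choice of scaling. Within clusters, pools with at least 10 cells gave log2(CPM + 1), with no test. Standard errors cover the spread between pools of 2 mice, and 1 capture a group. CD8 clusters, numbered 1 to 9 as deposited, were matched to C0 to C8 by markers. Hashtag numbers share only a number (see the closing part on processing). Alternatives were DESeq2 1.42.0, other scalings, filters and cell sets, a replicate block and leaving out pools.

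Named genes were both hosts, every other noncoding host tested, and from each list up to 3 rises and 3 falls per lineage at 50 mg/kg against saline, past the threshold and of at least 20 CPM, with the 2 genes most like each host. Some genes that the rule or the marker lists name are not reported here. Trnau1ap and Mcmdc2 were added as neighbours after values were seen. Sequences and coordinates came from GENCODE vM21 (GRCm38/mm10). Python 3.11.15, numpy 2.4.6, pandas 2.3.3, scipy 1.17.1 and matplotlib 3.10.9 were used.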

Additional observations from a re-analysis of the deposited data

Results flagged for a closer look

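For 15 of 38 named genes other than the hosts, the change at 50 mg/kg against saline differed between CD8+ and CD4+ cells (edgeR interaction term, adjusted over all genes; 2173 of 11001 genes passed). Values are the CD8+ minus the CD4+ log2 change. Genes of the lists, unlike the noncoding hosts, were named for a large change in this same contrast in either lineage. Part of the differences can follow from that choice, so the p-values are given as a description. Among noncoding hosts, the difference was 0.65 ± 0.16 (SE; edgeR adjusted p = 0.00351) for Epb41l4aos, whose rise was larger in CD8+ cells. Snhg6 and Snhg12 gave -0.03 ± 0.13 and 0.17 ± 0.14.

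Of 4 named ribosomal protein genes, 3 rose more in CD8+ cells, by 0.41 for Rpl41 (edgeR adjusted p = 1.46e-07), 0.35 for Rps7 (1.23e-05) and 0.31 for Rpl35a (8.10e-06), and Rpl36al did not pass (0.19, edgeR adjusted p = 0.0543). Of the named genes of the TOP class, 5 did likewise, by 0.32 for Btf3 (edgeR adjusted p = 1.11e-05), 0.29 for Eef1b2 (3.43e-05), 0.28 for Tpt1 (5.69e-06), 0.26 for Rack1 (3.84e-05) and 0.20 for Naca (0.00145), and Pabpc1 (0.06, edgeR adjusted p = 0.332) and Eif4b (0.00, edgeR adjusted p = 0.984) did not pass. So did the snoRNP proteins Nop10 by 0.34 (edgeR adjusted p = 3.49e-04) and Nhp2 by 0.25 (0.00607), and the ribosome genes Wdr12 by 0.54 (0.00300) and Polr1d by 0.17 (0.0144). Nop56 (-0.24, edgeR adjusted p = 0.0318) and Ubtf (-0.20, 0.0276) were lower in CD8+ than in CD4+ cells in this difference.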

How the results depend on the processing

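With library size scaling, the log2 change of Snhg6 was 0.74 and 0.52 in CD4+ cells (5 and 50 mg/kg against saline) and 0.74 and 0.43 in CD8+ cells, with -0.31 for 50 against 5 mg/kg, and Snhg12 reversed at 5 mg/kg to -0.02 (CD4+) and -0.08 (CD8+), with -0.52 and -0.41 at 50 mg/kg and -0.34 for 50 against 5 mg/kg in CD8+ cells. With CPM taken outside ribosomal protein and mitochondrial genes, Snhg6 gave 0.89 and 0.62 (CD4+) and 0.90, 0.57 and -0.33 (CD8+), and Snhg12 0.12 and -0.42 (CD4+) and 0.08, -0.27 and -0.35 (CD8+). With equal weight for every cluster, Snhg6 gave 0.81 at 5 mg/kg and 0.08 between doses (CD4+) and 0.97 and 0.82 (CD8+), and Snhg12 0.48 and 0.19 (CD4+) and 0.60, 0.42 and -0.17 (CD8+). Outside the cycling clusters, Snhg6 gave 1.06, 0.77 and -0.29 in CD8+ cells, and Snhg12 0.15 at 50 mg/kg and -0.28 between doses (CD4+) and 0.55 at 5 mg/kg and -0.43 between doses (CD8+). Without the Ccr7-rich cluster, chosen after seeing the data, Snhg12 gave 0.23 and 0.04 in CD8+ cells and 0.29 at 5 mg/kg in CD4+ cells. Calls of either host gained or lost are not read, since the hosts were chosen on these contrasts. These scalings set different reference genes, and the cause of the other moves was not tested.

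Leaving out each pool in turn gave, for 5 and 50 mg/kg against saline and 50 against 5 mg/kg, 0.98 to 1.21, 0.87 to 1.07 and -0.20 to -0.02 for Snhg6 in CD4+ cells, 1.14 to 1.21, 0.93 to 0.99 and -0.25 to -0.18 in CD8+ cells, 0.30 to 0.37, -0.22 to 0.02 and -0.56 to -0.32 for Snhg12 in CD4+ cells, and 0.32 to 0.38, 0.10 to 0.15 and -0.26 to -0.20 in CD8+ cells. Without CSA 50 mg/kg pool 3, Snhg12 in CD4+ cells gave -0.22 against saline and -0.56 against 5 mg/kg. The adjusted p of the ribosomal protein trend ran from 0.304 to 0.800 by the exact test. That test looks for an ordered course, which the share did not follow, so no lack of change is read from it. Among the other hosts, Snhg10 in CD8+ cells was past the threshold at 5 mg/kg only without 5 mg/kg pool 3 (edgeR adjusted p = 0.0279), and lost its call at 50 mg/kg with library size scaling (0.0731), and the Snhg20 step from 5 to 50 mg/kg in CD8+ cells lost its call in 6 settings (adjusted p from 0.0544 to 0.229).

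The hashtag numbers did not pair the pools: deviations of same-numbered pools correlated at -0.06 to 0.01 in CD4+ and -0.07 to 0.18 in CD8+ cells. With the number as a replicate block, Snhg6 gave 1.10, 0.96 and -0.13 (CD4+) and 1.17, 0.96 and -0.21 (CD8+), and Snhg12 0.33, -0.08 and -0.41 (CD4+) and 0.35, 0.12 and -0.23 (CD8+). Depth limits the clusters most, where a pool often held few UMIs of either host.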
